A study of Mus musculus with 19 samples.

Results

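The blood clotting and complement cascades run on proteins that the liver secretes into plasma. Their genes were followed here as a set of 35, chosen by name: 13 clotting factors and contact-system proteins, 7 inhibitors and fibrinolytic proteins, and 15 complement proteins, with C1 inhibitor and C4b-binding protein among the latter. The array carried 46 probes for them among 55681 non-control probes, and all 46 were among the 29415 probes kept for testing, which stood for 13812 named genes. Livers came from 19 male mice of the transgenic strain 40.6, aged 10 weeks, sampled 3 days after dibenz[a,h]anthracene (DB[a,h]A), a polycyclic aromatic hydrocarbon. Doses were 0 mg/kg (5 mice), 6.25 mg/kg (5), 12.5 mg/kg (4) and 25 mg/kg (5), with 1 array for each animal, read in 2 colours. All groups shared strain, sex, age and time, and the labels used here name neither vehicle nor route. Liver RNA was labelled red, and RNA pooled from 11 cultured mouse lines served as the green reference on every array, without dye exchange, so each ratio sets a liver against the same pool.

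Clotting begins when tissue factor (F3) on cells outside the vessel meets factor VII, or when factor XII, prekallikrein and kininogen assemble on a surface. Both routes activate factor X, which with factor V turns prothrombin into thrombin, and thrombin turns fibrinogen into fibrin. Complement is started by antibodies, by lectins that bind microbial sugars, or by slow turnover of C3, and ends in a membrane pore built from C5b, C6, C7, C8 and C9. Hepatocytes make most of these proteins, and several of them rise in inflammation as part of the acute-phase response.

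Liver signal was well above background at every one of the 46 probes on all 19 arrays, and none of their liver spots was saturated. Over the whole array, 35.5 to 56.7% of spots passed that mark in the liver channel and 55.8 to 75.4% in the reference channel. The 10 hepatocyte markers checked were above background on all arrays. Of 6 pancreas markers, 0 were above background on all arrays and 2 (Pnlip and Prss2) on none. Markers of other liver cells were also above background on all arrays: 6 of 8 for Kupffer cells, 7 of 9 for endothelium and 5 of 8 for stellate cells. Ratios of the 35 genes differed between the 3 slides that carried the arrays. The median of the 35 log2 ratios lay between 7.28 and 7.55 on the 5 arrays of slide 1, between 5.92 and 6.63 on the 8 of slide 2 and between 6.56 and 6.86 on the 6 of slide 3. Slide accounted for a median of 85.0% of the variance of a gene's ratio and for over 50% in 33 of 35 genes, whereas dose group accounted for a median of 1.41%. With the liver channel taken alone and quantile normalised between arrays, the same medians ran from 14.7 to 15.1 log2 intensity over all arrays. There slide accounted for a median of 21.1% of the variance and dose group for 23.0%, with the highest share of dose group, 62.7%, in Fga. Any grouping of 19 arrays takes up part of the variance by chance, and these shares were not set against those of all probes. Every slide held all 4 groups. Calls are therefore given without a slide term, which was the primary fit, and with slide as a block. For genes described by the blocked change alone, the plot of changes at 25 mg/kg shows both fits.

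**Figure D1:**
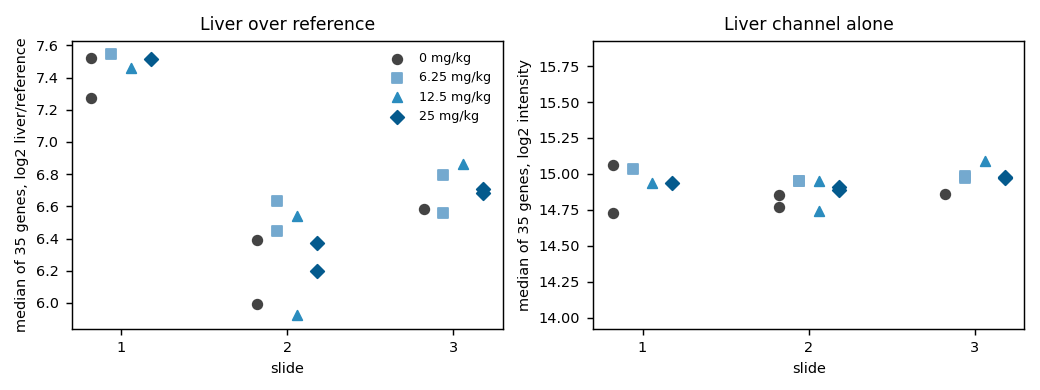
Median of the 35 genes on each array, as log2 liver over reference (left) and as log2 intensity of the liver channel alone (right), against slide, with 1 symbol per array and the symbol giving the dose. Ratios on slide 1 lie between 7.28 and 7.55, above every array of the other slides, and the liver channel alone lies between 14.7 and 15.1 on all arrays.

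In control livers these transcripts were mostly far more abundant than in the cell-line pool, with the ratio stating liver against pool for each gene and not which transcript was commonest. Antithrombin (Serpinc1), the main inhibitor of thrombin, had a mean log2 ratio of 10.36 ± 0.83 (SD, n = 5), or 1318-fold. The fibrinogen gamma chain (Fgg) stood at 10.17 ± 1.05. C4b-binding protein (C4bp), which restrains the classical route, stood at 9.07 ± 0.64, and C8b at 8.67 ± 1.01. Protein S (Pros1), a cofactor of activated protein C, had the smallest difference from the pool apart from a probe of factor X, at 2.05 ± 0.30 (4.14-fold). Some genes had little or no measured denominator: the reference was above background for F13b on 0 arrays, for C9 on 2, for Masp1 on 3 and for C8a on 14 of 19. No fold over the pool is given for F13b, C9 and Masp1.

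At no dose did any of the 35 genes pass an adjusted p of 0.05 (limma, Benjamini-Hochberg over 29415 probes), and the same held for all 46 probes. At 6.25 mg/kg, 0 members passed without and with the slide block, where 0% of all probes passed in either fit. At 12.5 mg/kg, 0 members passed in either fit, against 0% of all probes without the block and 0.0068% with it. At 25 mg/kg, 0 members passed, against 0.0578% of all probes without the block and 0.809% with it. A count of 0 among 35 genes is close to what those shares would leave. The mean of the 3 doses, the test for any dose difference and the linear trend on dose gave 0 members each, against 0.0374, 0.0102 and 0.0204% of all probes without the block and 0.408, 0.0748 and 0.241% with it. At an unadjusted p under 0.05 without the block, 0 of 35 genes were counted at each dose, against 5.57, 4.21 and 7.37% of all probes. With the block the counts were 2, 0 and 1, against 11.7, 9.5 and 14.6%. The liver channel alone gave more. With the block, 6, 3 and 13 of 35 genes were counted at 6.25, 12.5 and 25 mg/kg, against 11.4, 9.17 and 14% of all probes. Without it 5, 1 and 6 of 35 were, against 8.51, 5.97 and 10.4%. For the mean of the 3 doses and the trend, the blocked liver channel counted 11 and 9 of 35, against 12.5 and 10.6%. Except at 12.5 mg/kg, each of these liver-channel counts was a larger share of the 35 genes than the share of all probes. At 25 mg/kg with the block, 17 of the 35 liver-channel changes were higher and 18 lower. Why the shares differed was not tested. As ratios, values of every gene at every dose overlapped those of the controls, where 0.962, 1.43 and 1.74% of all probes did not overlap at 6.25, 12.5 and 25 mg/kg. By liver signal 1, 1 and 2 genes did not overlap, Fga at 6.25 mg/kg, Mbl2 at 12.5 mg/kg and both at 25 mg/kg, against 1.59, 2.01 and 2.87% of all probes.

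The block narrowed the intervals around these small changes. At 25 mg/kg without it, 29 of 35 genes had a lower and 6 a higher mean ratio than controls, with a median log2 change of -0.17 beside -0.02 over all probes. The 10 hepatocyte markers were lower in that fit as well, all 10 of them, with a median of -0.19. With the block, 19 genes were higher and 16 lower, and the median was 0.01 beside -0.01 over all probes, with 5 of the hepatocyte markers on each side. The 95% interval of the change stayed within 1.5-fold either way for 6 of 35 genes without the block, against 73.6% of all probes, and for 31 of 35 with it, against 88.6%. At 6.25 mg/kg with the block it did so for 32 genes, and at 12.5 mg/kg for 31. C9, C8a, F10 and C3 were the 4 genes whose interval at 25 mg/kg reached past 1.5-fold in the blocked fit. By role, the blocked medians at 25 mg/kg were -0.05 for the 13 clotting genes, 0.07 for the 7 inhibitors and fibrinolytic proteins and 0.03 for the 15 complement genes.

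**Figure D2:**
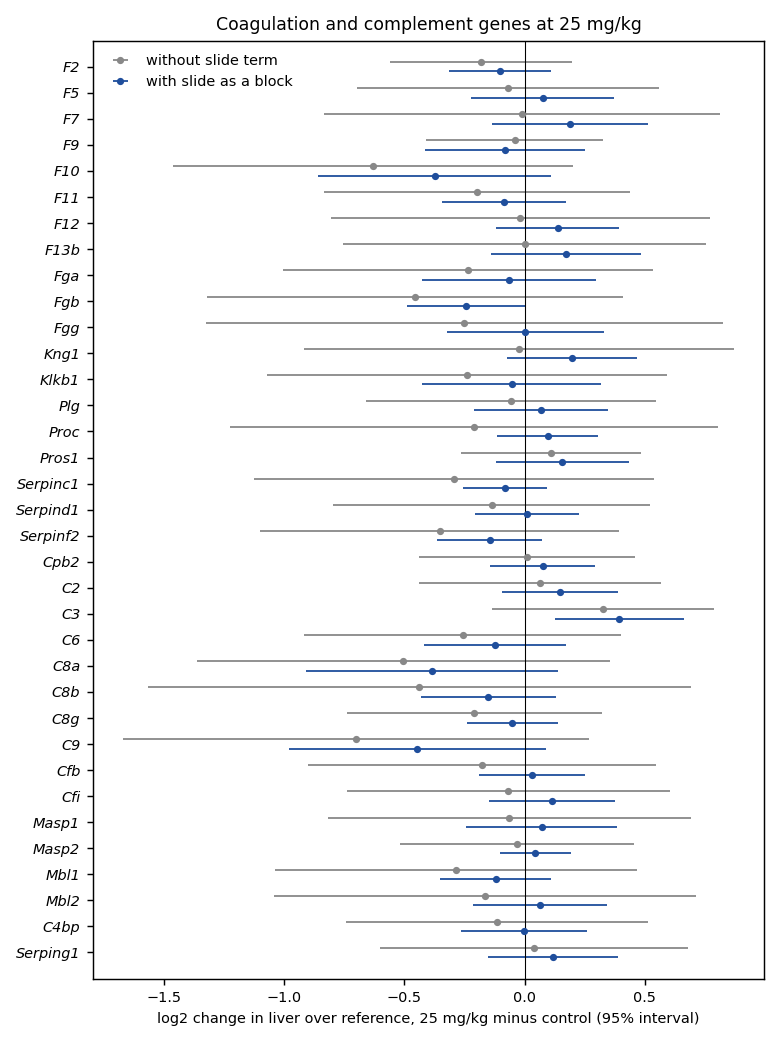
Log2 change in liver over reference at 25 mg/kg against control for the 35 genes, with 95% intervals, from the fit without a slide term (grey) and with slide as a block (blue). Blue intervals are the shorter ones, and 31 of 35 of them lie within 1.5-fold of no change.

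Single animals are listed below in slide order: controls as 2 of slide 1, 2 of slide 2 and 1 of slide 3; the 6.25 and 25 mg/kg groups as 1, 2 and 2; and the 12.5 mg/kg group as 1, 2 and 1. These values are given for the 8 members with the smallest p in the test for any dose difference, for the fibrinogen chains and for Mbl2, which was added after its values were seen.

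Among the clotting factors, prothrombin (F2), the precursor of thrombin, varied little. Its log2 ratios were 7.59, 7.55, 7.12, 7.03 and 7.06 in controls, 7.38, 6.76, 7.07, 7.11 and 6.87 at 6.25 mg/kg, 7.66, 7.13, 6.71 and 7.34 at 12.5 mg/kg and 7.52, 6.70, 7.02, 7.16 and 7.05 at 25 mg/kg. Slide 1 livers gave the highest value in each group, and the groups overlapped. The change at 25 mg/kg was -0.18 ± 0.18 (SE, adjusted p = 0.876) without the block and -0.10 ± 0.10 (0.702) with it. Factor IX (F9), the protein missing in haemophilia B, read 5.19, 4.79, 5.46, 4.70 and 5.18 in controls and 5.10, 4.79, 5.44, 5.56 and 5.06 at 6.25 mg/kg. It read 4.93, 4.73, 4.30 and 5.10 at 12.5 mg/kg and 5.02, 4.88, 4.81, 5.24 and 5.16 at 25 mg/kg. F9 was the gene least tied to slide among those listed, and 1 liver of slide 2 at 12.5 mg/kg was its lowest value. Its change was 0.13 ± 0.18 at 6.25 mg/kg, -0.30 ± 0.19 at 12.5 mg/kg and -0.04 ± 0.18 at 25 mg/kg, with adjusted p of 0.953, 0.999 and 0.973 without the block, and -0.08 ± 0.16 at 25 mg/kg with it (0.870).

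Factor X (F10), where the 2 starting routes of clotting meet, had 2 probes that read differently. On the brighter one the ratios were 1.83, 1.80, 0.47, 2.15 and 0.52 in controls, 1.75, 0.50, 0.45, 0.32 and 0.30 at 6.25 mg/kg, 1.96, 0.55, 0.63 and 0.46 at 12.5 mg/kg and 1.84, 0.33, 0.30, 0.65 and 0.52 at 25 mg/kg. Slide 1 was high in every group, and 1 control of slide 2 stood at 2.15 while the other slide 2 arrays stood at 0.63 or less. Its change at 25 mg/kg was -0.63 ± 0.40 (adjusted p = 0.804) without the block and -0.37 ± 0.23 (0.488) with it. Without that one control of slide 2 the blocked change was -0.02. The second probe had a control mean of 6.29 ± 0.49 and a blocked change of 0.03 ± 0.10 (adjusted p = 0.943). Over the 19 arrays the liver-channel values of the pair, with slide means removed, correlated at r = -0.32. The dose values of F10 therefore depend on which probe is read.

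Fibrinogen, the clottable protein, is assembled from 3 chains whose genes Fgg, Fga and Fgb are neighbours on chromosome 3 with no gene between them. Since the chains belong to 1 protein, the 120 bases just upstream of each start are shown, 5′ to 3′ on the strand of the gene. They are as RefSeq gives them in GRCm38.p6 (the array was designed on another build). Capitals mark the letters of a C/EBP motif (TTGCGCA, here read as its reverse complement); C/EBP proteins are liver transcription factors.
Fga (chr3:83026033-83026152, plus strand): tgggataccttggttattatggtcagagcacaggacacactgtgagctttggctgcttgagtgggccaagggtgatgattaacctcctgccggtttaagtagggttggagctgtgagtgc
Fgb (chr3:83049864-83049983, minus strand): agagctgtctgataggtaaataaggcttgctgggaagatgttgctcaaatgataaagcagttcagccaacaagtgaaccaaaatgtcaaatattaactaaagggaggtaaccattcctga
Fgg (chr3:83007604-83007723, plus strand): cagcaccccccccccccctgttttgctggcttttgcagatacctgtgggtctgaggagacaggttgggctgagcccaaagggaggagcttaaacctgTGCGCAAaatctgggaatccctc
The C/EBP letters begin 23 bases before the start of Fgg, and the stretches of Fga and Fgb held no C/EBP, HNF4A or D-box letters as spelled out below.

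In the livers, Fga read 9.23, 9.28, 8.32, 7.56 and 8.46 in controls, 9.19, 8.07, 8.28, 8.68 and 7.98 at 6.25 mg/kg, 9.39, 8.40, 7.50 and 8.64 at 12.5 mg/kg and 9.24, 7.86, 7.92, 8.50 and 8.16 at 25 mg/kg. Fgb read 9.41, 9.40, 8.13, 7.66 and 8.26 in controls, 9.22, 7.59, 7.71, 8.23 and 7.80 at 6.25 mg/kg, 9.26, 8.03, 7.50 and 8.46 at 12.5 mg/kg and 9.19, 7.49, 7.61, 8.27 and 8.03 at 25 mg/kg. Fgg read 11.35, 11.16, 9.44, 8.96 and 9.93 in controls, 11.11, 9.23, 9.63, 10.01 and 9.55 at 6.25 mg/kg, 11.37, 9.62, 8.84 and 10.24 at 12.5 mg/kg and 11.08, 9.14, 9.47, 9.98 and 9.91 at 25 mg/kg. All 3 chains were high on slide 1 and overlapped between doses as ratios. Without the block the change at 25 mg/kg was -0.24 ± 0.37 for Fga, -0.45 ± 0.41 for Fgb and -0.25 ± 0.51 for Fgg, with adjusted p of 0.918, 0.864 and 0.939. The blocked change at 25 mg/kg was -0.06 ± 0.17 for Fga, -0.24 ± 0.12 for Fgb and 0.00 ± 0.16 for Fgg, with adjusted p of 0.907, 0.357 and 0.995. A dimmer Fga probe gave -0.26 ± 0.15 (adjusted p = 0.451).

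Fga separated from controls at 2 of the 3 doses when the liver channel was read alone. Its log2 intensities were 15.31, 15.45, 15.24, 15.11 and 15.27 in controls, 15.03, 15.02, 15.03, 14.97 and 14.92 at 6.25 mg/kg, 15.33, 15.40, 15.08 and 15.84 at 12.5 mg/kg and 15.06, 14.95, 14.94, 14.96 and 14.96 at 25 mg/kg. Every liver at 6.25 and at 25 mg/kg lay below every control, while the 12.5 mg/kg livers ran from below to above the controls. The changes were -0.28 ± 0.10, 0.14 ± 0.11 and -0.30 ± 0.10 from the lowest to the highest dose without the block, and none passed (adjusted p = 0.497, 0.932 and 0.265). With the block the 25 mg/kg change was -0.30 ± 0.10 (adjusted p = 0.170), and on the dimmer probe -0.39 ± 0.14 (0.203). Fgb and Fgg stood at -0.14 ± 0.09 and -0.06 ± 0.09 in that fit.

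With slide and dose means removed, the 3 chains rose and fell together from liver to liver. Over 19 livers, Fga and Fgb correlated at r = 0.91 and rho = 0.80 (permutation within slides, adjusted over 6 pairs, p = 0.00012 for r and 0.0029 for rho). Fga and Fgg correlated at r = 0.88 and rho = 0.78 (adjusted permutation p = 0.00027 and 0.0029), and Fgb and Fgg at r = 0.82 and rho = 0.75 (0.00056 and 0.0029). Without the 2 livers farthest from the median of the x axis the 3 coefficients were 0.84, 0.77 and 0.67. They were 0.96, 0.92 and 0.88 on slide 2 and 0.93, 0.91 and 0.92 on slide 3, but -0.72, 0.07 and -0.53 among the 5 arrays of slide 1. In the liver channel alone they were 0.52, 0.76 and 0.78. Such ratios share an array and a reference hybridisation: over all 595 pairs of the 35 genes the median r was 0.56, and the pair Fgg and Plg, which encodes the precursor of the clot-dissolving enzyme plasmin, reached 0.93. How much of the chains' correlation that common part carries was not tested.

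**Figure D3:**
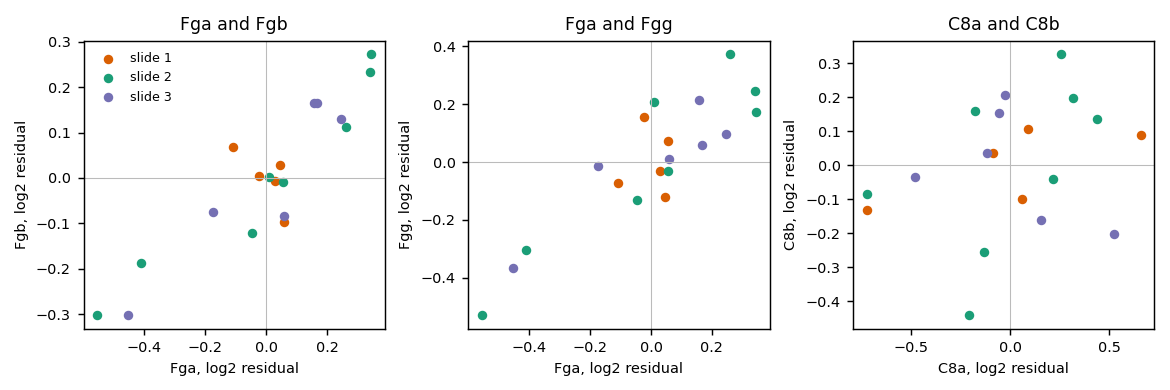
Log2 ratios of 19 livers with slide and dose means removed, 1 point per liver coloured by slide, for Fga against Fgb, Fga against Fgg and C8a against C8b. Over all 19 livers r is 0.91 and 0.88 for the fibrinogen pairs and 0.30 for the C8 pair. On slide 1 alone it is -0.72, 0.07 and 0.72 in the same order.

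Of the other clotting genes, none of F5, F7, F11, F12, F13b, Kng1 and Klkb1 had a blocked change at 25 mg/kg beyond 0.20 in either direction. The largest of them were 0.20 ± 0.13 for kininogen (Kng1), which carries prekallikrein and yields bradykinin, and 0.19 ± 0.15 for factor VII (F7), the partner of tissue factor, with adjusted p of 0.521 and 0.617. Factor XIII B (F13b), the carrier of the enzyme that cross-links fibrin, was printed on 10 spots of each array, whose SD around their mean had a median of 0.12, against an SD of 0.25 between livers within groups after slide means were removed. The 7 inhibitors and fibrinolytic proteins lay between -0.14 ± 0.10 for alpha-2-antiplasmin (Serpinf2), which blocks plasmin, and 0.16 ± 0.13 for Pros1. Antithrombin changed by -0.08 ± 0.08 and plasminogen by 0.07 ± 0.13, with adjusted p of 0.716 and 0.866. Protein C (Proc) and carboxypeptidase B2 (Cpb2), which slows clot lysis, stood at 0.10 ± 0.10 and 0.08 ± 0.10.

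C3, the protein on which all complement routes converge, had the smallest adjusted p of the 35 genes at 25 mg/kg in the blocked fit. Its ratios were 5.93, 5.70, 5.11, 5.09 and 5.27 in controls, 6.15, 5.58, 5.09, 5.80 and 5.51 at 6.25 mg/kg, 5.76, 5.25, 5.34 and 6.10 at 12.5 mg/kg and 6.25, 5.48, 5.49, 5.96 and 5.56 at 25 mg/kg. On each slide, every 25 mg/kg liver lay above every control, although the groups overlapped across slides. How many of all probes separate in this way was not counted, and the same values gave C3 its small p. The change at 25 mg/kg was 0.33 ± 0.22 (adjusted p = 0.823) without the block and 0.39 ± 0.13 (0.151) with it, with a 95% interval of 0.13 to 0.66 before adjustment. Within slides 1, 2 and 3 it was 0.43, 0.38 and 0.49. At 6.25 and 12.5 mg/kg the blocked changes were 0.27 ± 0.13 and 0.28 ± 0.13, with adjusted p of 0.414 and 0.529. C3 was printed on 10 spots whose SD had a median of 0.07, against 0.20 between livers. In the liver channel alone the change was 0.20 with an adjusted p of 0.231 in the blocked fit. Over arrays the C3 signal of the reference ran opposite to that of the liver (r = -0.84, slide means removed). The reference averaged 14.11 log2 on control arrays and 13.80 at 25 mg/kg, while the liver channel averaged 18.18 and 18.38. What part the reference channel plays in the C3 ratio was not tested. A second, single-spot C3 probe changed by 0.85 ± 0.39 (adjusted p = 0.328), with 1 control of slide 1 at 2.54 where the other controls stood at 4.78 to 5.55.

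The pore-forming components C6, C8 and C9 had lower mean ratios at 25 mg/kg than controls, being among the 29 of 35 genes that did without the block. None of them passed the test. C6 read 7.07, 7.26, 6.18, 5.80 and 6.51 in controls, 6.89, 5.67, 6.03, 5.89 and 6.41 at 6.25 mg/kg, 7.11, 6.24, 5.48 and 6.46 at 12.5 mg/kg and 6.91, 5.82, 6.09, 6.50 and 6.21 at 25 mg/kg. Its blocked change was -0.25 ± 0.14, -0.10 ± 0.15 and -0.12 ± 0.14 from the lowest to the highest dose, with adjusted p of 0.504, 0.886 and 0.744. Without the block the 25 mg/kg change was -0.26 ± 0.32 (0.895). C9, the subunit that is inserted many times into the pore, read 7.51, 7.11, 6.50, 5.99 and 6.28 in controls and 7.75, 5.52, 6.14, 5.94 and 6.40 at 6.25 mg/kg. At 12.5 mg/kg it read 6.86, 6.24, 4.57 and 6.10 and at 25 mg/kg 7.38, 5.54, 5.67, 5.89 and 5.40. On slides 2 and 3 all 4 livers at 25 mg/kg lay below the controls of their slide, and the slide 1 liver lay between its controls. As for C3, the share of all probes that separate within slides was not counted, and C9 was listed for its small p. The change of C9 was -0.70 ± 0.46 (adjusted p = 0.816) without the block and -0.45 ± 0.25 (0.447) with it, and in the liver channel alone, where the near-background reference does not enter, -0.54 (0.129).

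C8 is built from alpha, beta and gamma chains, and the genes of the first 2, C8a and C8b, are neighbours on chromosome 4. C8a read 8.66, 7.28, 6.98, 6.00 and 7.93 in controls, 8.16, 7.26, 6.64, 7.03 and 7.66 at 6.25 mg/kg, 7.46, 6.58, 6.06 and 6.93 at 12.5 mg/kg and 7.70, 6.20, 6.55, 6.96 and 6.90 at 25 mg/kg. The control SD was 1.0 against 0.59, 0.59 and 0.56 in the treated groups, and the 12.5 and 25 mg/kg values lay inside the control range. Both C8a probes showed this spread, correlating at r = 0.95 in the liver channel with slide means removed. At 25 mg/kg the change without the block was -0.50 ± 0.41 for C8a, -0.44 ± 0.54 for C8b and -0.21 ± 0.25 for C8g, with adjusted p of 0.853, 0.895 and 0.893. A second C8g probe was not lower, with mean ratios of 5.33 in controls and 5.38 at 25 mg/kg. The blocked change was -0.38 ± 0.25 for C8a (adjusted p = 0.513), -0.15 ± 0.13 for C8b (0.655) and -0.05 ± 0.09 for C8g (0.853). For C8a it ran from -0.60, without control replicate 3, to -0.18, without control replicate 1. Over all 19 livers the correlation of C8a with C8b (r = 0.30, adjusted permutation p = 0.274) and with C8g (r = 0.04, 0.863) did not pass. On slides 1, 2 and 3, C8a and C8b gave r = 0.72, 0.52 and -0.49, and C8a and C8g gave -0.18, 0.36 and -0.49. C8b and C8g gave r = 0.61 and rho = 0.50 (adjusted permutation p = 0.0362 and 0.0921), but -0.17 in the liver channel alone.

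**Figure D4:**
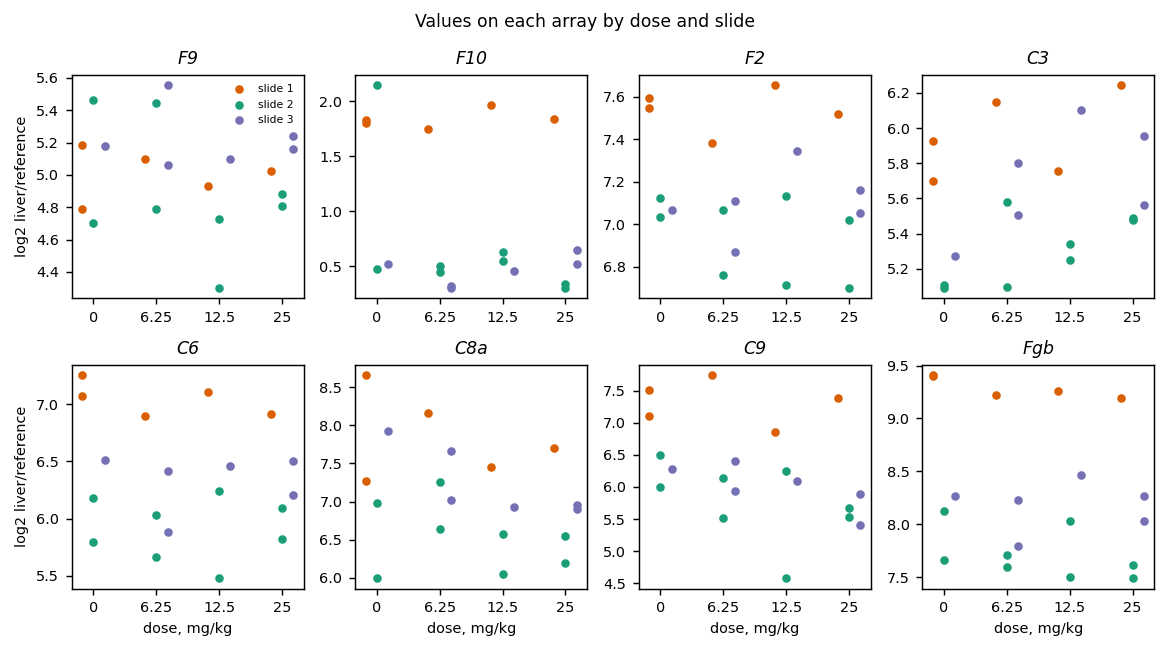
Log2 liver over reference on each array for F9, F10, F2, C3, C6, C8a, C9 and Fgb, by dose in mg/kg (groups equally spaced) and coloured by slide, with 1 point per liver. Slide 1 (orange) is high in most panels, the doses overlap throughout, and the F10 control of slide 2 at 2.15 stands with slide 1.

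Among the remaining complement genes, C2 and factor B (Cfb), neighbours on chromosome 17 that supply the proteases of the C3-cleaving enzymes, changed by 0.15 ± 0.12 and 0.03 ± 0.11 at 25 mg/kg with the block. Factor I (Cfi), which inactivates C3b, stood at 0.11 ± 0.12, C1 inhibitor (Serping1) at 0.12 ± 0.13 and C4bp at 0.00 ± 0.13. The lectin-route proteases Masp1 and Masp2 stood at 0.07 ± 0.15 and 0.04 ± 0.07. Of the dimmer Masp2 probes, one had mean ratios of 5.26 in controls and 5.23 at 25 mg/kg, and another 2.58 and 2.88. Adjusted p for these genes ranged upward from 0.601, the value of C2. Mannose-binding lectin A (Mbl1), which recognises microbial sugars, changed by -0.12 ± 0.11 (adjusted p = 0.668).

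Mannose-binding lectin C (Mbl2), of the same route, gave different results by ratio and by liver signal. Its ratios were 8.71, 8.68, 7.43, 7.12 and 7.62 in controls, 8.79, 7.35, 7.49, 7.68 and 7.49 at 6.25 mg/kg, 8.96, 7.58, 6.79 and 7.63 at 12.5 mg/kg and 8.87, 6.96, 7.33, 7.77 and 7.81 at 25 mg/kg. These overlapped fully, with a change at 25 mg/kg of -0.17 ± 0.42 (adjusted p = 0.954) without the block and 0.07 ± 0.13 (0.874) with it. In the liver channel alone the log2 intensities were 16.52, 16.43, 16.15, 16.50 and 16.30 in controls, 16.91, 16.54, 16.67, 17.31 and 16.39 at 6.25 mg/kg, 16.81, 17.11, 16.86 and 17.22 at 12.5 mg/kg and 16.93, 16.95, 17.12, 17.29 and 17.51 at 25 mg/kg. All livers at 12.5 and 25 mg/kg lay above all controls, and 1 liver at 6.25 mg/kg lay among the controls. The liver-channel change was 0.38 ± 0.15, 0.62 ± 0.16 and 0.78 ± 0.15 at 6.25, 12.5 and 25 mg/kg, with adjusted p of 0.516, 0.411 and 0.0352, so that Mbl2 passed at 25 mg/kg (1.71-fold). It was the only one of the 35 genes to do so, where 0.282% of all probes passed. With the slide block the 25 mg/kg change was 0.75 ± 0.15 (adjusted p = 0.0261, with 0.891% of all probes passing). Within slides 1, 2 and 3 it was 0.45, 0.71 and 1.09. Of 19 fits that each left out 1 liver, 11 kept the call (adjusted p from 0.0129 to 0.116), as did 15 of 19 with the block. The call was lost without any single control and without replicate 1, 2 or 4 of the 25 mg/kg group, where the change was 0.69 to 0.81. With the block it was lost without control replicate 1 or 2 and without replicate 1 or 4 of the 25 mg/kg group, at 0.66 to 0.74.

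The other comparisons in the liver channel gave 0 called members of 35, with 1 exception. Without the block, 0% of all probes passed at 6.25 mg/kg, 0.0068% at 12.5 mg/kg, 0.122% for the mean of the 3 doses, 0.0374% for any dose difference and 0.116% for the trend. With the block the shares were 0.0034, 0.0068, 0.486, 0.0544 and 0.156% in the same order. The exception was Mbl2 for the mean of the 3 doses with the block, at 0.57 (adjusted p = 0.0469).

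The reference channel of Mbl2 moved as well, although the reference RNA came from the same pool on every array. Its log2 intensity was 9.18, 9.14, 9.97, 10.65 and 9.87 on the control arrays, 9.55, 10.26, 10.35, 10.70 and 10.03 at 6.25 mg/kg, 9.24, 10.77, 11.27 and 10.76 at 12.5 mg/kg and 9.43, 11.24, 10.94, 10.68 and 10.78 at 25 mg/kg. Taken alone without the block, the reference signal changed by 0.85 at 25 mg/kg, where the liver channel changed by 0.78. With the block it changed by 0.64 ± 0.18 (adjusted p = 0.977), where the liver channel changed by 0.75. Over the 19 arrays the liver and reference signals of Mbl2, with slide means removed, correlated at r = 0.84. C8a showed r = 0.86 between its channels, C6 0.72 and F11 0.68. Over all kept probes, 61 with a liver-channel SD above 0.5 and a liver signal brighter than the reference by 3 to 6 log2 units had a median r of 0.87 and a median reference SD of 0.25. The 9 probes brighter by more than 6 had a median r of 0.80 and a reference SD of 0.16, the 237 brighter by up to 3 had 0.47 and 0.12, and the 347 no brighter than the reference had 0.58 and 0.12. Mbl2, brighter by 6.58 with a liver SD of 0.36, was in none of these classes. The part that the reference channel plays in the Mbl2 ratio was not tested.

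**Figure D5:**
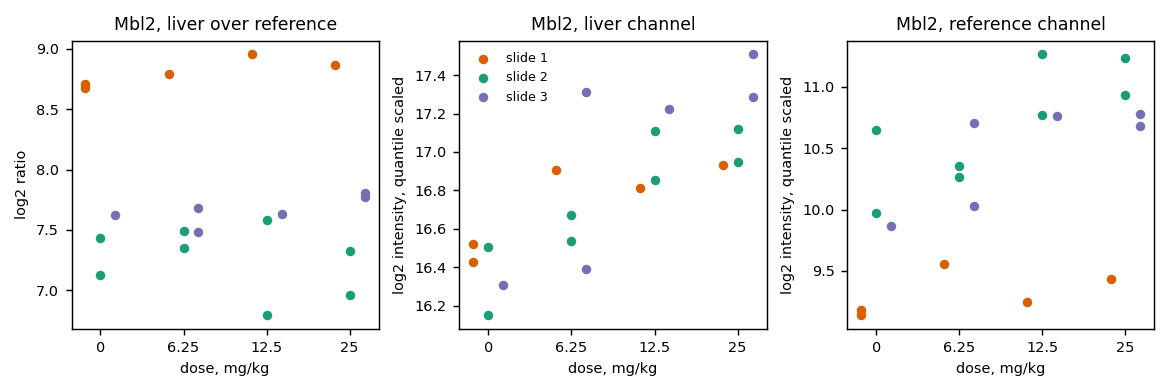
Mbl2 on each array by dose in mg/kg (groups equally spaced), coloured by slide, with 1 point per liver, as the log2 ratio (left), the quantile-scaled log2 intensity of the liver channel (middle) and that of the reference channel (right). Liver intensity at 25 mg/kg is 16.93 or more, above the highest control of 16.52, and the reference intensity is also higher at 25 mg/kg within each slide.

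For comparison with the fibrinogen genes, the 120 bases upstream of Mbl2 held no C/EBP, HNF4A or D-box letters, although HNF4A letters lay elsewhere in its window of 300 bases.
Mbl2 (chr19:30232808-30232927, plus strand, GRCm38.p6): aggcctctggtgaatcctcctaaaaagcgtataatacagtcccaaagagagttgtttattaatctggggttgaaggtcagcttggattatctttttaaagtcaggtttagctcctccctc
Of the 35 genes, 27 had a RefSeq promoter window, of 250 bases before to 50 after the start. C/EBP letters (TTGCGCA or TTGCAAT) were in 2 of the 27 (7.41%), against 4.21% of 32851 windows in all, and HNF4A letters (CAAAGT) in 5 (18.5%, against 14.4%), Mbl2 among them. The D-box letters TTATGTA or TTACGTA, to which Dbp, Tef and Nfil3 bind, were in 0 of 27 windows, against 3.09% of all. None of the motifs contains another, and a match describes letters only.

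Of 34 other clotting and fibrinolysis genes, 29 were kept, and without the block none passed at 25 mg/kg, against 0.0578% of all probes. With the block 1 passed, against 0.809%. This was tissue factor (F3), the starter of clotting, which made it the one clotting gene here with a called rise. Its log2 ratios were -2.40, -2.59, -2.43, -1.98 and -2.62 in controls, -1.79, -2.12, -1.74, -2.51 and -2.25 at 6.25 mg/kg, -1.85, -1.82, -1.92 and -1.64 at 12.5 mg/kg and -1.78, -1.76, -1.83, -1.50 and -1.43 at 25 mg/kg. All livers at 12.5 and 25 mg/kg lay above all controls, where 1.43 and 1.74% of all probes did not overlap the controls. The change at 25 mg/kg was 0.75 ± 0.15 in both fits, a 1.68-fold rise with an adjusted p of 0.0645 without and 0.0265 with the block, and in the liver channel alone 0.76 ± 0.15 (0.0419). F3 was less abundant in liver than in the pool, and whether hepatocytes or other liver cells carried it cannot be told apart in whole tissue; for every gene here, fewer cells of a type and less RNA per cell cannot be told apart either. S100a10, a plasminogen receptor subunit, stood at -0.82 ± 0.20 with the block (adjusted p = 0.0568), and Serpina5, the protein C inhibitor, at -0.36 ± 0.20 (0.441).

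Of 32 other complement genes, 27 were kept and none passed at 25 mg/kg in either fit. The 3 with the smallest p in the fit without the block were the receptor C3ar1 (-0.33 ± 0.12, adjusted p = 0.194 with the block), the C1q chain C1qb (-0.60 ± 0.38, 0.50) and the pore inhibitor Cd59a (0.09 ± 0.09, 0.702). None of 26 other secreted hepatocyte proteins and none of 17 acute-phase genes passed, with blocked medians of -0.04 and 0.10. The secreted proteins of smallest p in the fit without the block were Afm, Serpina1a and Pon1, at -0.13 ± 0.11, -0.17 ± 0.11 and -0.11 ± 0.12, and the acute-phase genes so chosen were Steap4, Orm3 and Saa3. Their changes with the block were 0.85 ± 0.31, 0.63 ± 0.23 and 0.09 ± 0.18 (adjusted p = 0.208, 0.201 and 0.871). Among 23 liver transcription factors, 3 passed at 25 mg/kg with the block, against 0.809% of all probes, all of them D-box binders. Dbp rose by 3.83 ± 0.49, Tef rose by 1.90 ± 0.23 and Nfil3 fell by 1.40 ± 0.24 (adjusted p = 0.0026, 0.0026 and 0.0151). Without the block Dbp and Nfil3 passed and Tef did not (0.0982), against 0.0578% of all probes passing. The factors HNF4A and C/EBP alpha, named here because motifs of their families were searched, were on that list and did not pass (adjusted p = 0.948 and 0.656 with the block).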

How the data were processed

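Per the file headers, version 10.7.3.1 of Feature Extraction wrote the median pixel intensity of each spot and its background in both colours; medians were used because the files hold no mean signals. The deposited value table holds log2 ratios of liver over reference (r of 0.993 to 0.996 with a loess ratio made without background subtraction). How it was made is not given in the sources used here. Signals were corrected with normexp (offset 50) and normalised by loess within arrays in limma 3.58.1 under R 4.3.3; flagged spots (0.132% of values) were left out and spots of a probe averaged. A probe was kept when, on 4 or more arrays, over 0.5 of its spots had a liver signal well above background. Probes were named through RefSeq accessions (47.4% of probes), with no position used from that table, and a gene is its brightest kept probe unless another is named. Group means of 19 arrays were fitted with lmFit and eBayes, two-sided, adjusted by Benjamini-Hochberg. Slide entered a second fit as a block. Slide 1 was scanned 7 days after the others. The liver and reference channels alone were normalised by quantiles. Correlations used 100000 permutations within slides. Fits were tested on simulated data. Each array is a different animal, so p-values rest on the spread between arrays of different animals. Without the slide term that spread includes differences between slides. The median SD of the 35 genes within dose groups was 0.63 as ratios and 0.20 with slide effects removed. The 35 genes and all gene lists were chosen with earlier results of these data known. Values by liver are given for the 8 members with the smallest p for any dose difference, for fibrinogen and for members that passed (none by ratio). Other genes are named when they passed or were among the 3 of smallest p in their list at 25 mg/kg without the block. Promoters are RefSeq windows of GRCm38.p6; no protein or probe sequences were used here. One further motif and 1 transcription factor are not reported here. The alternatives are in the closing section.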

Additional observations from a re-analysis of the deposited data

Results flagged for a closer look

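In 11 of 120 sets of 4 or 5 livers, made from 15 probes of 11 genes on 2 scales, 1 liver stood apart from the rest of its dose group by Dixon's test, or 9.17% where chance gives about 1 in 20. Of these 11 values, 10 came from slide 1. As ratios, F10 stood at 1.75 at 6.25 mg/kg (others 0.30 to 0.50), 1.96 at 12.5 mg/kg (0.46 to 0.63) and 1.84 at 25 mg/kg (0.30 to 0.65). The C9 ratio at 25 mg/kg was 7.38 on slide 1 against 5.40 to 5.89, and the Mbl2 ratio at 6.25 mg/kg was 8.79 against 7.35 to 7.68.

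The second C3 probe was low in 1 control of slide 1, at a ratio of 2.54 against 4.78 to 5.55 and a liver-channel log2 intensity of 14.03 against 17.28 to 17.53. In the liver channel alone, C9 stood at 11.67 at 25 mg/kg on slide 1 against 10.63 to 10.88. F2 stood at 16.26 at 12.5 mg/kg against 16.43 to 16.46, and Fga at 15.06 at 25 mg/kg against 14.94 to 14.96, both on slide 1. The value from slide 3 was C8a at 12.22 at 12.5 mg/kg against 11.99 to 12.01.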

How the results depend on the processing

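The count of members that passed stayed at 0 at 6.25 and 12.5 mg/kg, for any dose difference and for the trend under every alternative run, and at 0 when each liver was left out, without and with the block. It became 1 (Mbl2) in the liver channel alone at 25 mg/kg, in both the fit without and the fit with the block, and 1 for the mean of the 3 doses in the liver channel with the block. Mbl2, whose ratio was -0.17 without the block and 0.07 with it at 25 mg/kg, stood there at 0.78 and 0.75 in the same order, and at 0.57 for the mean of the doses with the block. Its liver-channel change at 25 mg/kg ranged from 0.69 to 0.83 with each liver left out (0.66 to 0.82 with the block). It lost the call under 75th percentile scaling (0.87, adjusted p = 0.158), with the software's processed signal without the block (0.74, 0.133) and with it (0.69, 0.0937), and over all non-control probes (0.78, 0.0568), and kept it in the other 4 settings; within slides 1 and 3 it was 0.45 and 1.09. These Mbl2 settings were chosen after the data were seen, and the cause of the differences was not tested. The median change of the members at 25 mg/kg ranged from -0.17 to 0.01 over the settings, and from -0.35 to 0.03 with each liver left out. In the liver channel alone r was 0.52 for Fga and Fgb, 0.37 for C8a and C8g and -0.17 for C8b and C8g; without the 2 farthest livers it was -0.19 for C8a and C8g. Counts of all probes passing at 25 mg/kg were 17 without and 238 with the block, and ran from 10 to 262 over the settings and, with each liver left out, from 0 (25 mg/kg replicate 1) to 67 (6.25 mg/kg replicate 5) without and from 25 (control replicate 1) to 320 (12.5 mg/kg replicate 1) with the block. At 12.5 mg/kg they were 0 to 6, for the mean of the doses 11 without and 120 with the block (5 to 143), for any dose difference 3 and 22 (0 to 22) and for the trend 6 and 71 (2 to 93). With the block and each liver left out these ran from 0 to 15, 5 to 180, 0 to 102 and 4 to 263. No paired analysis was possible because the labels give no replicate numbers shared between dose groups. Groups of 4 or 5 animals limit the precision, and the ratio of genes dim in the reference pool rests on signal near background.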

Other observations

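Mbl2, by liver signal, and F3, by ratio, each stood above all controls at 12.5 and at 25 mg/kg. Of all probes, 2.01 and 2.87% did not overlap the controls at those doses by liver signal, and 1.43 and 1.74% by ratio. Both genes were singled out for their values. For F3 the ratio and the liver channel gave the same change at 25 mg/kg (0.75 and 0.76), and for Mbl2 they did not (-0.17 and 0.78 without the block, 0.07 and 0.75 with it).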
